A study of Homo sapiens with 12 samples.

Results

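The genes of the integrated stress response and the targets of its transcription factor ATF4 were measured in MDA-MB-231-ERβ cells, a triple negative breast cancer line that carries full-length estrogen receptor beta (ERβ, encoded by ESR2) under a doxycycline (dox) inducible promoter. The 39 genes were chosen by symbol, from a list put together with counts of all 4 groups already seen, so their changes are given as a description. Of these, 36 were among the 12451 entries of the count table and were tested with 11303 entries in all, and STC2, ALDH1L2 and CBS were not analysed here. All cells were grown in charcoal-stripped serum with dox for 5 days, with fresh medium on day 3. The vehicle group received ethanol, the E2 group 1 nM estradiol (E2) for the 5 days, the TNFα group ethanol and then 20 ng/ml TNFα for the last 3 h, and the E2 + TNFα group both agents on the same schedule. Each group had 3 libraries (12 in all, 7.65 to 39.9 M assigned reads), and the comparisons ask how E2-bound ERβ and TNFα, alone and together, alter the transcriptome. The receptor is supplied by a transgene that every group carries and induces, so no group lacks it, and p-values measure the spread between these libraries, which may be technical.

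In the integrated stress response, kinases that sense amino acid shortage (EIF2AK4, also called GCN2), misfolded protein in the endoplasmic reticulum (EIF2AK3, also called PERK) and other stresses phosphorylate the translation initiation factor eIF2. Translation as a whole is then reduced, while the mRNA of ATF4 is translated more. ATF4 binds DNA with partners of the C/EBP family and induces genes for amino acid synthesis and uptake, for tRNA charging and export, and for feedback on the response, of which PPP1R15A restores eIF2 to its unphosphorylated form. The libraries measured mRNA and neither the phosphorylation of eIF2 nor the translation of ATF4. In RNA from whole dishes, a change in every cell and a change in the share of cells that respond cannot be told apart.

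ATF4 and its partners bind composite elements with the letters TGATGNAA, and promoter stretches that hold them are shown because ATF3, CHAC1 and ASNS are among the members whose changes are described. The letters were searched on both strands of RefSeq promoters (GRCh38.p14, 250 bases before to 50 after the start), which were found for 29 of the 36 members. They were present in 5 of the 29 (17.2%), against 1.60% of the promoters of 9022 genes tested and 3.67% of 27305 promoters in all. The form TGATGCAA, which is part of that search, was in 1 of the 29 (3.45%), against 0.432% and 0.923%. Matches in SLC3A2 and SLC7A1 lay after the start. The other 3 are printed 5′ to 3′ along the strand of the gene with the match in capitals, which in CHAC1 lies on the opposite strand and reads as its reverse complement.
ATF3 (chr1:212565196-212565243, plus strand, match 191 bases before the start): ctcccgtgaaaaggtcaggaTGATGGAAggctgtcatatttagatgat
CHAC1 (chr15:40953242-40953289, plus strand, match 209 bases before the start): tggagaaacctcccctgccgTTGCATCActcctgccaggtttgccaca
ASNS (chr7:97872449-97872496, minus strand, match 68 bases before the start): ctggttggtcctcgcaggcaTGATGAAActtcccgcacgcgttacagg
A match is a description of these letters and not a measure of binding. Further starts of these genes, if any, were not searched.

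The 3 vehicle libraries stood apart from the other 9. Over all genes tested, the log2 fold change relative to vehicle rose with the GC content of the exons in each treated group (Spearman's rho across genes 0.71 for TNFα, 0.66 for E2 and 0.67 for E2 + TNFα). In the comparisons without the vehicle group, rho was −0.21 for E2 + TNFα relative to TNFα and −0.33 for E2 + TNFα relative to E2. The vehicle libraries still entered the fit that gave these values. A preparation that differed for the vehicle libraries and an effect of the treatments cannot be told apart, so values relative to vehicle are also given after a correction that takes out, library by library, the dependence on GC content and length (the GC correction). Of the mesenchymal markers of the line, VIM was at 1042 to 1668 counts per M assigned reads (CPM), CD44 at 722 to 1685, AXL at 1148 to 1890 and CAV1 at 153 to 445. ZEB1, listed with them, ranged from 0.478 to 26.8 CPM, with means of 23.3 in vehicle, 2.13 in TNFα, 1.19 in E2 and 2.72 in E2 + TNFα. Of the markers listed as low in the line, CDH1 ranged from 1.77 to 53.4 CPM, with means of 3.15, 1.90, 41.0 and 40.7 in the same order. GATA3 was at 3.67 to 14.5 CPM and EPCAM at 6.54 to 15.7 CPM. ESR2 was at 228 to 508 CPM in the 12 libraries, where the mean was 473 ± 14.9 CPM for vehicle, 255 ± 26.7 for TNFα, 306 ± 14.7 for E2 and 448 ± 53.2 for E2 + TNFα (SD, n = 3), so the transgene was expressed in every group at levels that differed between them. Its part in the results was not tested. Of the markers of leukocytes and fibroblasts, CD68 was at 73.4 to 106 CPM, PDGFRB at 2.26 to 19.3 and LUM at 0 to 0.478.

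Across the 4 groups, most members were highest in the TNFα libraries and lower again where E2 was also present. The group mean was highest in TNFα for 25 of the 36 members, in vehicle for 8 and in E2 for 3 (ATF5, SLC7A5 and SLC3A2). This count was not made over all genes tested, so it has no share to be set against. For 22 members all 3 TNFα libraries lay above all 9 others (61.1%, against 10.2% of all genes tested), and for VLDLR, a lipoprotein receptor, they lay below all 9 others (7.06% of all genes tested did so). GDF15, among the 22, entered the test only through the TNFα libraries. The members highest in TNFα had a median exon GC content of 56.6%, and those highest in vehicle had 43.2%, with a range of 36.3 to 48.7%. The median over all genes tested was 49.9%. Per length, SLC7A5, the catalytic subunit of a leucine transporter, was the most abundant member in every group, at 271 ± 21.1 RPKM (reads per kilobase of exon and M assigned reads) in vehicle and 857 ± 128 in TNFα (SD, n = 3).

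**Figure D1:**
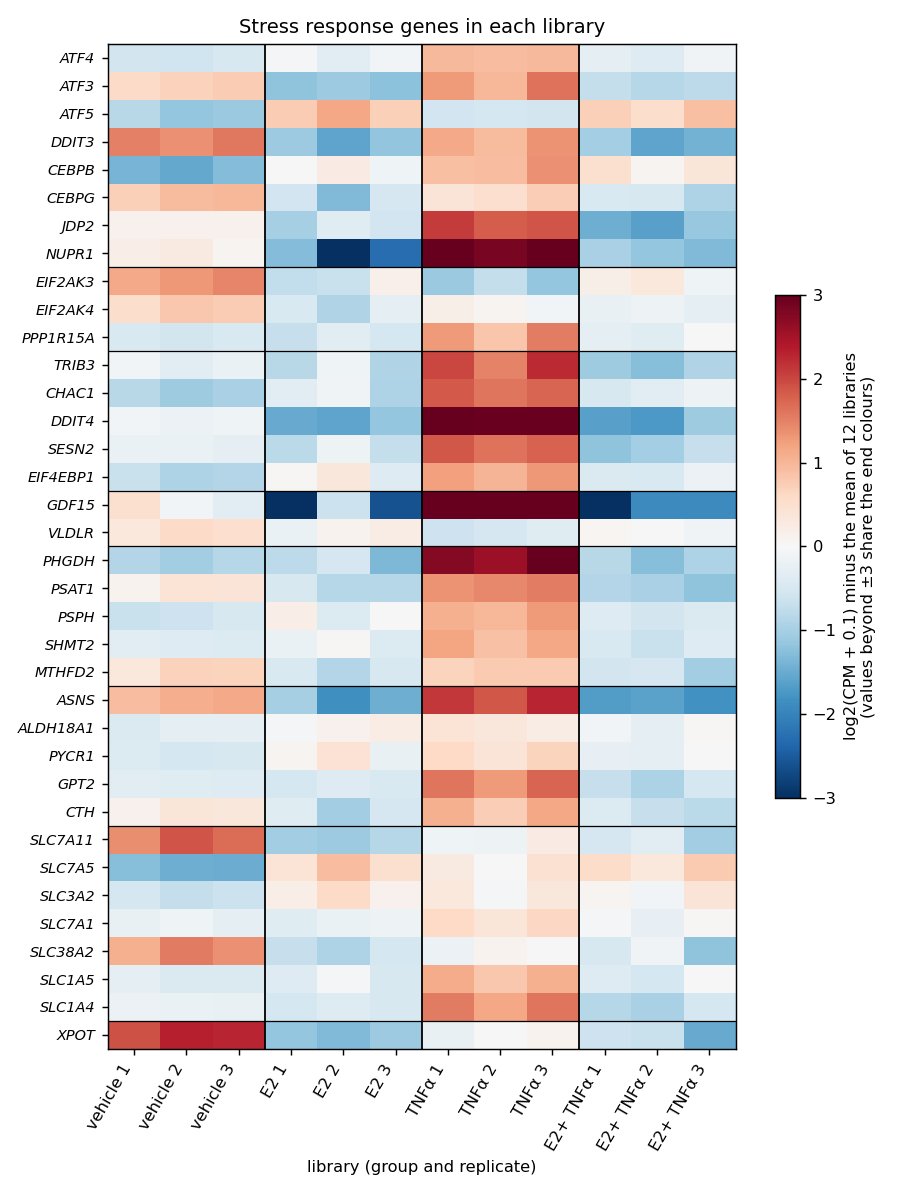
Heat map of log2(CPM + 0.1) minus the gene's mean over the 12 libraries, for 36 genes (rows, grouped by role) and 12 libraries (columns). The 3 TNFα libraries are the highest of all for 22 genes, and 8 genes have their highest mean in vehicle.

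ATF4 itself (chr22:39520559-39522686, plus strand, hg38) was at 257, 251 and 270 CPM in the vehicle libraries and at 740, 721 and 736 CPM in the TNFα libraries. With E2 it was at 362, 301 and 360 CPM, and with E2 + TNFα at 312, 289 and 350 CPM. The TNFα libraries therefore lay apart from all others, and the E2 and E2 + TNFα libraries overlapped. A member was counted as past the thresholds where edgeR's quasi-likelihood test gave p under 0.05 with an adjusted p no higher than 0.1 and the log2 fold change was 1.5 or more in either direction. ATF4 had log2 fold changes of 1.5 ± 0.11 (SE) in TNFα relative to vehicle, which before rounding was just under the limit, and −1.21 ± 0.11 in E2 + TNFα relative to TNFα, so neither was past the thresholds. The call relative to vehicle depended on the processing. ATF4 was past the thresholds in DESeq2, with DESeq2 size factors and with no filter (1.53 in each). It was also past them without TNFα replicate 2 (1.51) or TNFα replicate 3 (1.5001). After the GC correction ATF4 was not past the thresholds in this comparison.

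**Figure D2:**
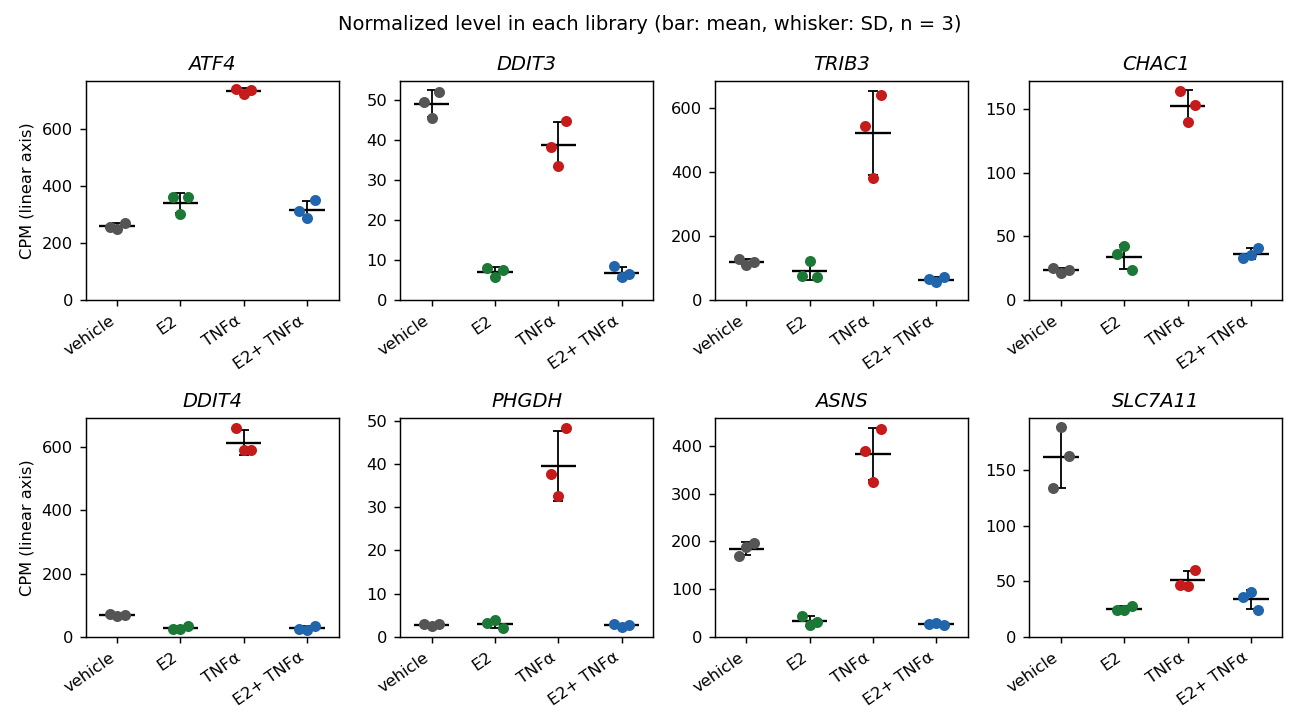
Normalized level (CPM, linear axis from 0) of 8 genes in each library, by group, with the mean (bar) and SD (whisker) of 3 libraries. ATF4, TRIB3, CHAC1, DDIT4, PHGDH and ASNS are highest in the 3 TNFα libraries, whereas DDIT3 and SLC7A11 have their highest mean in vehicle.

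E2 before TNFα, relative to TNFα alone, was accompanied by lower levels of many members of the module. In E2 + TNFα relative to TNFα, 18 of the 36 members were lower and 0 were higher past the thresholds, against 2.01% of all genes tested lower and 3.55% higher. DESeq2 also gave 18 lower and 0 higher, and 3 members were higher at an unadjusted p under 0.05 in either tool. By the adjusted p limit alone, whatever the size, 33 of the 36 members differed (30 lower, 3 higher), against 45.3% of all genes. The median log2 fold change was −1.497 over the members and 0.04 over all genes tested. The 18 calls are a description, because the list was made with these values seen. They include GDF15, which entered the test only through the TNFα libraries.

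The feedback and effector genes were all lower in this comparison (5 of 5). DDIT4, an inhibitor of mTORC1 signaling, was at 659, 589 and 589 CPM in TNFα and at 24.4, 22.6 and 35.6 CPM in E2 + TNFα, a log2 fold change of −4.47 ± 0.18 (22.2-fold lower). TRIB3, a pseudokinase that binds ATF4, was at 544, 382 and 640 CPM in TNFα and at 64.9, 56.6 and 72.5 CPM in E2 + TNFα (−3.01 ± 0.22). In neither gene did the groups overlap, and the levels with E2 + TNFα were below all 3 vehicle libraries. SESN2, a leucine sensor that restrains mTORC1, changed by −2.71 ± 0.17 from a mean of 121 ± 10.4 CPM to 18.4 ± 3.41 CPM. CHAC1, an enzyme that degrades glutathione, was at 164, 139 and 153 CPM in TNFα and at 32.8, 35.8 and 41.3 CPM in E2 + TNFα (−2.05 ± 0.17). EIF4EBP1, which represses cap-dependent translation, was the member nearest to the limit (−1.53 ± 0.16).

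Among the transcription factors 4 of 8 were lower past the thresholds. NUPR1, a stress-induced chromatin protein, had the largest change of the 4 (−4.79 ± 0.35), but its E2 + TNFα libraries held 6, 9 and 9 reads, against 265, 201 and 211 reads in TNFα. JDP2, a repressor that pairs with ATF3 and other basic leucine zipper proteins, changed by −3.36 ± 0.21. DDIT3 (CHOP; chr12:57516588-57521698, minus strand), which is linked to cell death under lasting stress, was at 38.1, 33.5 and 44.8 CPM in TNFα and at 8.59, 5.70 and 6.47 CPM in E2 + TNFα (−2.50 ± 0.18). Of its exon bases, 28% overlap MARS1 on the opposite strand, and the strand setting of the counting is not given in the sources used here. ATF3, whose promoter match is printed above, was at 66.1, 54.8 and 85.4 CPM in TNFα and at 16.6, 15 and 15.8 CPM in E2 + TNFα (−2.12 ± 0.15). The DDIT3 and ATF3 groups did not overlap. ATF4, ATF5, CEBPB and CEBPG were not past the thresholds, with log2 fold changes between −1.21 and 1.28. The exons of ATF5 share 30.2% of their bases with NUP62 on the opposite strand.

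Of the genes for serine, glycine and folate metabolism 4 of 5 were lower. PHGDH, the entry enzyme of serine synthesis, was at 37.7, 32.6 and 48.4 CPM in TNFα and at 3.03, 2.20 and 2.82 CPM in E2 + TNFα, a log2 fold change of −3.89 ± 0.23 (14.8-fold lower). The next enzymes of that pathway, PSAT1 and PSPH, changed by −2.47 ± 0.14 and −1.58 ± 0.15. SHMT2, the mitochondrial enzyme that converts serine to glycine, changed by −1.58 ± 0.13, and MTHFD2 was not past the thresholds. PSAT1 has 4 near-identical copies elsewhere in hg38, the longest of 2080 bases at up to 94.7% identity, so reads may be split between them and its counts are uncertain.

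Of the genes for asparagine, proline, alanine and cysteine 3 of 5 were lower. ASNS (chr7:97852117-97872542, minus strand), the asparagine synthetase, was at 390, 324 and 434 CPM in TNFα and at 27.7, 29.5 and 25.4 CPM in E2 + TNFα. Its log2 fold change of −3.80 ± 0.19 (13.9-fold lower) was the largest in the module after those of GDF15, NUPR1, DDIT4 and PHGDH. ASNS has 3 partial copies of up to 639 bases and its counts carry the same uncertainty. GPT2, a mitochondrial alanine transaminase, changed by −2.28 ± 0.14 and CTH, which forms cysteine from cystathionine, by −1.64 ± 0.19, whereas the proline synthesis genes ALDH18A1 and PYCR1 were not past the thresholds.

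GDF15, a secreted stress hormone, had the largest fitted change of the module (−7.58 ± 0.59), from 947, 556 and 900 reads in the TNFα libraries to 0, 6 and 7 in E2 + TNFα. The size of this change rests on the few reads of the lower group. GDF15 reached the RPKM limit of 1 in all 3 TNFα libraries and in 1 vehicle library, so it entered the test only through the group in which it was high.

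The transporters and the eIF2 regulators were mostly not past the thresholds. Of 7 amino acid transporters, SLC1A4, which carries alanine, serine, cysteine and threonine, was lower (−2.23 ± 0.15), and the other 6 lay between −1.28 and 0.31. SLC7A11, the cystine transporter, changed by −0.59 ± 0.18. The eIF2 kinases EIF2AK3 and EIF2AK4, the phosphatase subunit PPP1R15A and the tRNA exporter XPOT were not past the thresholds either, and neither was VLDLR. The number of members lower was 17 when the vehicle libraries were left out and 18 after the GC correction, against 208 and 224 of all 11303 genes tested. EIF4EBP1 was then at −1.495 without the vehicle libraries, at −1.48 without E2 + TNFα replicate 2 and at −1.47 without TNFα replicate 3, and PSPH at −1.497 without TNFα replicate 3, all under the limit of 1.5.

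**Figure D3:**
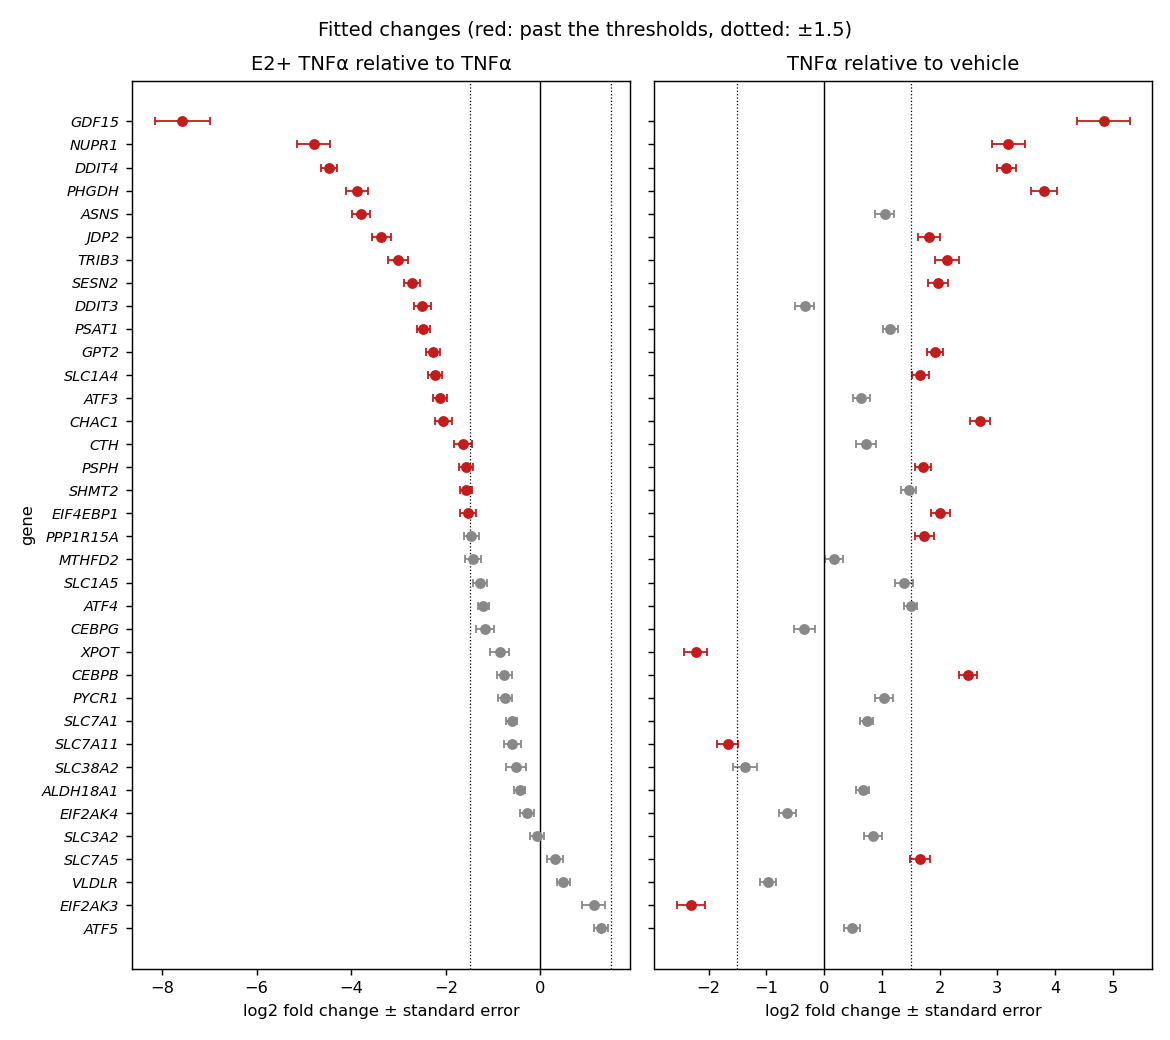
Fitted log2 fold change with its standard error (whiskers) for 36 genes in E2 + TNFα relative to TNFα (left) and in TNFα relative to vehicle (right), in the same order, with genes past the thresholds in red and dotted lines at ±1.5. Of the 36 genes, 18 are past the thresholds on the left, all of them lower, and 15 are higher and 3 lower on the right.

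TNFα alone, relative to vehicle, was accompanied by higher levels of feedback genes, serine synthesis enzymes and several regulators. The TNFα libraries serve in both comparisons, so the values are not independent of those above. In all, 15 of the 36 members were higher and 3 were lower past the thresholds, against 6.64% and 20.0% of all genes tested. By the adjusted p limit alone, 34 members differed (27 higher, 7 lower), against 81.9% of all genes. The median log2 fold change was 1.27 over the members and 0.01 over all genes.

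All 5 feedback and effector genes were higher with TNFα, and of these DDIT4 and CHAC1 stayed past the thresholds after the GC correction. DDIT4 was at 71.6, 66.3 and 68.6 CPM in vehicle, well below its TNFα libraries (3.15 ± 0.17). CHAC1, at 25.4, 21.7 and 23.3 CPM in vehicle, was higher by 2.70 ± 0.18 and TRIB3, at 129, 109 and 118 CPM, by 2.14 ± 0.21. EIF4EBP1 and SESN2 were higher by 2.01 ± 0.17 and 1.98 ± 0.17. The secreted GDF15 held 63, 42 and 38 reads in vehicle and was higher by 4.84 ± 0.45, but it entered the test only through the TNFα libraries. PHGDH was at 2.90, 2.61 and 2.95 CPM in vehicle (3.81 ± 0.23), and the other genes of amino acid synthesis past the thresholds were GPT2 (1.92 ± 0.14) and PSPH (1.71 ± 0.15). Of the regulators, NUPR1 (3.19 ± 0.29), CEBPB, a C/EBP partner of ATF4 (2.49 ± 0.16), JDP2 (1.82 ± 0.19) and PPP1R15A (1.74 ± 0.17) were higher. Among the transporters SLC1A4 (1.67 ± 0.14) and SLC7A5 (1.66 ± 0.17) were higher. SLC7A5 has 2 partial copies in hg38 of up to 640 bases.

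Some core members were lower or not past the thresholds. DDIT3 was at 49.4, 45.4 and 52.0 CPM in vehicle, above every TNFα library, with a log2 fold change of −0.34 ± 0.17 that was not past the thresholds. ATF3 changed by 0.64 ± 0.15 and ASNS, at 170, 189 and 196 CPM in vehicle, by 1.05 ± 0.17. EIF2AK3 (−2.31 ± 0.25), XPOT (−2.22 ± 0.20) and SLC7A11 (−1.67 ± 0.18) were lower. SLC7A11 was at 134, 189 and 162 CPM in vehicle and at 46.8, 46.0 and 60.2 CPM in TNFα. These 3 genes have GC contents of 36.3 to 44.4%, and after the GC correction none was past the thresholds and SLC7A11 was higher in TNFα (1.16). After the correction, 8 members were higher and 0 were lower (GDF15, PHGDH, DDIT4, NUPR1, PSAT1, CHAC1, CTH and PSPH), of which 6 were among the 18 past the thresholds without it and PSAT1 and CTH were not, and the median over the members was 1.06. With it, 606 of all 11303 genes tested were higher and 576 were lower. XPOT has a copy of 1635 bases at 92% identity.

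**Figure D4:**
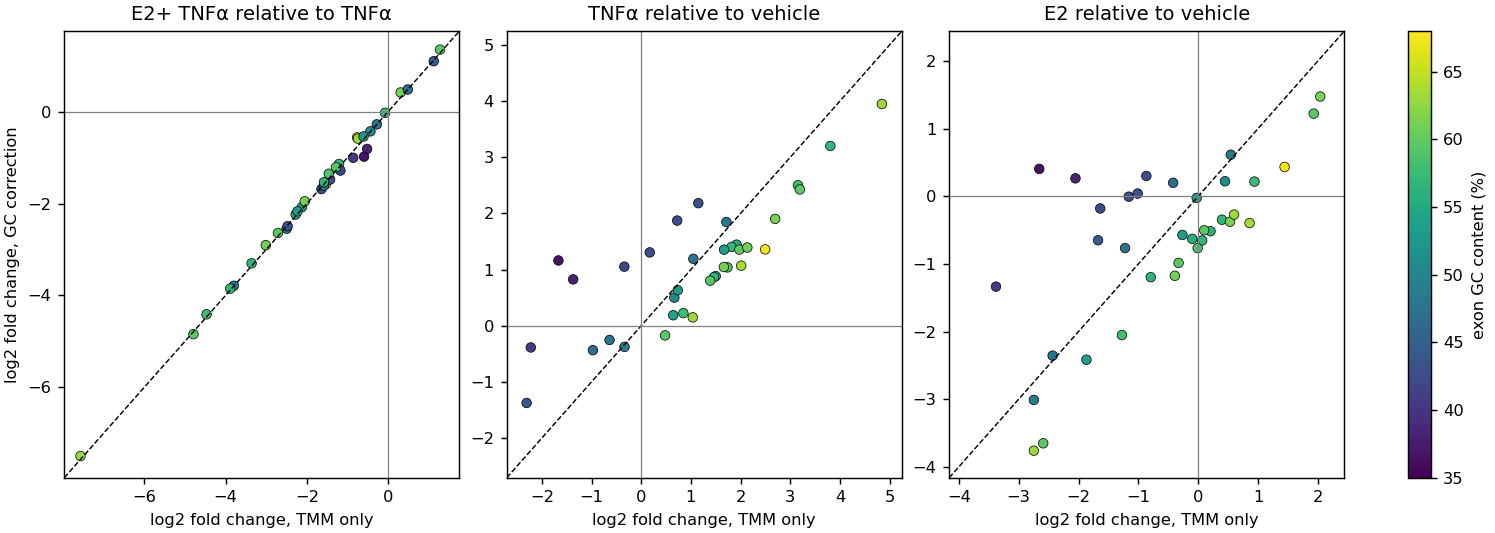
Log2 fold change of 36 genes with TMM normalization only (x axis) and after the GC correction (y axis), coloured by exon GC content, for 3 comparisons, where the dashed line marks equal values. Points lie along the line for E2 + TNFα relative to TNFα (18 genes lower in both), and away from it by GC content for TNFα and E2 relative to vehicle, where SLC7A11 changes sign.

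The interaction, the change with TNFα in the presence of E2 minus that in its absence, was past the thresholds for 20 members, of which 16 were negative and 4 positive, against 9.29% and 22.5% of all genes tested. By the adjusted p limit alone it differed from 0 for 32 members (26 negative, 6 positive), against 76.6% of all genes. The median was −1.42 over the members and −0.01 over all genes. Negative values mean that TNFα raised the gene less, or lowered it more, with E2. The largest were those of GDF15 (−4.83 ± 1.58), PHGDH (−3.95 ± 0.33), DDIT4 (−3.20 ± 0.23), TRIB3 (−2.62 ± 0.29) and CHAC1 (−2.58 ± 0.24), and ATF4 was past the limit at −1.60 ± 0.16. GDF15 entered the test only through the TNFα libraries, in which it was high, and its E2 libraries held 0, 4 and 1 reads. ASNS was at −1.36 ± 0.24, ATF3 at −0.26 ± 0.22 and DDIT3 at 0.25 ± 0.25, which were not past the thresholds. SLC38A2, a neutral amino acid transporter (1.53 ± 0.31), SLC7A11 (2.06 ± 0.26), XPOT (2.52 ± 0.29) and EIF2AK3 (2.80 ± 0.35) were positive, and after the GC correction SLC38A2 and SLC7A11 became negative (−1.07 and −1.38). After the correction 13 members were past the thresholds (12 negative, 1 positive), of which 11 were among the 20, and ATF4 was not among them (−0.79). With it, the interaction was past them for 769 of all 11303 genes tested as a negative value and for 767 as a positive value. Without E2 replicate 2, the library with the fewest reads, the interaction of GDF15 was −3.01 and, without E2 replicate 1, that of NUPR1 was −0.82, neither past the thresholds. ATF4 was under the limit without vehicle replicate 1 or 2 (−1.48 and −1.46). SLC38A2 was under it without E2 replicate 2 (1.35), E2 + TNFα replicate 2 (1.26) or TNFα replicate 1 (1.46).

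With E2 alone, relative to vehicle, 10 members were lower and 2 were higher past the thresholds, against 20.6% and 9.87% of all genes tested, and 29 met the adjusted p limit alone, against 81.8%. The median was −0.36 over the members and −0.02 over all genes. DDIT3 was at 8.14, 5.74 and 7.60 CPM with E2, under all vehicle libraries (−2.75 ± 0.19), and so was ASNS at 44.5, 24.9 and 32.2 CPM (−2.43 ± 0.18). ATF3, at 11.9, 12.8 and 11.6 CPM with E2 and 41.1, 44.3 and 46.5 CPM in vehicle, changed by −1.87 ± 0.16. GDF15 (−2.75 ± 0.84) and NUPR1 (−2.59 ± 0.54) were also lower, with at most 4 reads in an E2 library. These 5 genes and DDIT4 were the 6 members lower after the GC correction. With it, 650 of all 11303 genes tested were lower and 918 were higher. XPOT (−3.38 ± 0.22), SLC7A11 (−2.66 ± 0.19), SLC38A2 (−2.05 ± 0.22), EIF2AK3 (−1.67 ± 0.25) and CEBPG, a further C/EBP protein (−1.64 ± 0.20), were lower without that correction and not past the thresholds with it, and it turned SLC7A11 to 0.40 and SLC38A2 to 0.26. CEBPG was at −1.40 without E2 replicate 2. SLC7A5 (2.04 ± 0.17) and ATF5 (1.93 ± 0.15) were higher, at 1.47 and 1.22 after it. ATF4 (0.40 ± 0.11), CHAC1 (0.53 ± 0.17) and TRIB3 (−0.39 ± 0.20) were not past the thresholds, and the correction turned ATF4 and CHAC1 to −0.35 and −0.38.

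E2 + TNFα relative to vehicle gave a similar count. Of the members, 9 were lower and 3 were higher past the thresholds, against 17.6% and 7.52% of all genes tested, 30 met the adjusted p limit, against 80.6%, and the median was −0.65 over the members and −0.03 over all genes. DDIT3 (−2.84 ± 0.18), ASNS (−2.75 ± 0.18), GDF15 (−2.73 ± 0.64), NUPR1 (−1.60 ± 0.37) and JDP2 (−1.54 ± 0.20) were lower in this comparison and also after the GC correction. XPOT (−3.08 ± 0.21), SLC7A11 (−2.26 ± 0.19), SLC38A2 (−1.89 ± 0.22) and CEBPG (−1.51 ± 0.19) were lower without the correction and not past the thresholds with it, and SLC7A11 and SLC38A2 then turned to 0.18 and 0.014. SLC7A5 (1.97 ± 0.17), ATF5 (1.76 ± 0.14) and CEBPB (1.73 ± 0.16) were higher, and after the correction 0 members were higher and 8 lower. With it, 791 of all 11303 genes tested were higher and 464 were lower. ATF3 (−1.48 ± 0.15), TRIB3 (−0.88 ± 0.20), CHAC1 (0.64 ± 0.17) and ATF4 (0.29 ± 0.11) were not past the thresholds, and the correction turned CHAC1 and ATF4 to −0.052 and −0.26. Leaving out 1 library moved ATF3 past the limit in 4 cases (E2 + TNFα replicate 1, and vehicle replicates 1, 2 and 3, at −1.55, −1.62, −1.58 and −1.52), and took CEBPG (−1.37 without E2 + TNFα replicate 3), JDP2 (−1.42 without E2 + TNFα replicate 2) and NUPR1 (−1.48 without E2 + TNFα replicate 3) under it.

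When TNFα was added to E2, no member was past the thresholds. In E2 + TNFα relative to E2, 0 members were higher and 0 lower past the thresholds by edgeR and 0 by DESeq2, with 8 and 10 members at an unadjusted p under 0.05. Of all genes tested, 0.389% were higher and 0.0177% lower past the thresholds, and 6.00% met the adjusted p limit. The median was −0.08 over the members and 0.01 over all genes. JDP2, named after its values were seen, was the only member to meet the adjusted p limit in edgeR (−0.75 ± 0.22, adjusted p = 0.075). The log2 fold changes of the core genes were −0.11 ± 0.11 for ATF4, 0.39 ± 0.16 for ATF3, −0.09 ± 0.19 for DDIT3, −0.49 ± 0.20 for TRIB3, 0.11 ± 0.17 for CHAC1, −0.32 ± 0.17 for ASNS and 0.40 ± 0.19 for SLC7A11. DDIT4 was at 26.3, 25.2 and 33.5 CPM with E2 and at 24.4, 22.6 and 35.6 CPM with E2 + TNFα, and these groups overlapped. A p that misses the threshold does not show that the groups are alike. The E2 libraries were shallower (7.65 to 15.8 M reads) than the E2 + TNFα libraries (16.8 to 36.7 M) and the vehicle libraries (35.8 to 39.9 M).

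Other genes of the pathway were taken from lists that share no gene with the members. Shares over all genes tested are given first, as the measure for each count below. In E2 + TNFα relative to TNFα, 2.01% were lower and 3.55% higher. Relative to vehicle, 20.0% were lower and 6.64% higher with TNFα, 20.6% and 9.87% with E2, and 17.6% and 7.52% with E2 + TNFα. The interaction was positive for 22.5% and negative for 9.29%. In E2 + TNFα relative to E2, 0.389% were higher and 0.0177% lower. Of 15 genes of the eIF2 machinery (subunits of eIF2 and its exchange factor, the other kinases and their regulators), 0 were past the thresholds in E2 + TNFα relative to TNFα (2 at an unadjusted p under 0.05 in edgeR and 4 in DESeq2, which also called 0). Of these genes 4 were lower with TNFα, 3 with E2 and 2 with E2 + TNFα relative to vehicle, and 3 had a positive interaction. Of 15 further ATF4 targets tested, 4 were lower and 1 was higher in E2 + TNFα relative to TNFα (median −1.15). ADM2, a peptide hormone of the calcitonin family, had a mean of 48.3 ± 6.90 CPM in TNFα and 6.00 ± 1.04 CPM in E2 + TNFα (−3.0 ± 0.19). HMOX1, which degrades heme and is also a target of NRF2, moved the other way, from 32.3 ± 4.41 CPM in TNFα to 283 ± 30.4 CPM in E2 + TNFα (3.14 ± 0.14). Relative to vehicle, 3 of the 15 were higher and 3 lower with TNFα, and 2 higher and 6 lower both with E2 and with E2 + TNFα, while 2 interactions were positive and 3 negative. Of 11 autophagy genes under ATF4, 0 were past the thresholds in E2 + TNFα relative to TNFα (5 at an unadjusted p under 0.05 in edgeR and 6 in DESeq2, which also called 0). Relative to vehicle, 2 were lower with TNFα, 2 with E2 and 2 with E2 + TNFα, and 1 was higher with E2. Their interactions were positive for 2 and negative for 1. Of 7 NRF2 targets, 1 (HMOX1) was higher and 0 lower in E2 + TNFα relative to TNFα. Relative to vehicle, 2 of them were lower with TNFα, E2 or E2 + TNFα and 1 was higher with E2 or E2 + TNFα, and 3 had a positive interaction. In E2 + TNFα relative to E2, 0 genes of these 4 lists were past the thresholds in edgeR or DESeq2, with 4 of the eIF2 machinery, 3 of the further targets, 1 of autophagy and 1 of NRF2 at an unadjusted p under 0.05 in edgeR (4, 3, 1 and 2 in DESeq2).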

How the data were processed

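Counts were used as deposited. They are reads that the authors mapped to hg38 with TopHat2 2.1.0 and assigned to genes with featureCounts, from stranded, poly(A)-selected libraries. Entries that repeated another exactly (46), or under another symbol at the same locus (70), were dropped. Of the 12451 left, the 11303 that reached an RPKM of 1 in 3 or more libraries entered edgeR 4.0.16 (quasi-likelihood F test, R 4.3.3, TMM, 4 group means in one fit), with Benjamini-Hochberg adjustment over all of them. CPM values are relative to TMM-scaled library sizes. The members and the other gene lists were chosen with earlier results of these data known, by symbol. Log2 fold changes are printed for members past the thresholds and, in every comparison, for ATF4, ATF3, DDIT3, TRIB3, CHAC1, ASNS and SLC7A11. Of the other lists, at most 2 called genes are named. JDP2 relative to E2 and genes at the limit were named after their values were seen.

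Alternatives were size factors of DESeq2 1.42.0, library size only, no filter, at least 10 counts in every library, a replicate block, a factor of unwanted variation from 20 housekeeping genes, removal of each library's loess trends with GC content and length (span 0.3, alone and with the block), DESeq2, and each library left out in turn. Leaving out the vehicle libraries was added after seeing the data. The paper corrected its counts for batch effects with RUVseq and curated housekeeping genes. Those genes, and which libraries formed the batches, are not given in the sources used here. The main fit had no such correction. Near-identical copies (at least 200 bases at 90% identity) were sought with minimap2 2.31-r1302. The tests were also run on counts simulated with the same spread for every gene, which does not show how they behave on these libraries.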

Additional observations from a re-analysis of the deposited data

Results flagged for a closer look

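The test of the interaction, that is of a difference in the TNFα response between cells with and without E2, was past the thresholds for 20 members, and its value is given for each on the log2 scale. Among the feedback, effector and secreted genes these were GDF15 (−4.83), DDIT4 (−3.20), TRIB3 (−2.62), CHAC1 (−2.58), EIF4EBP1 (−2.39) and SESN2 (−2.38). GDF15 entered the test only through the TNFα libraries, in which it was high. Among the enzymes of amino acid synthesis they were PHGDH (−3.95), GPT2 (−2.18), PSPH (−2.12) and SHMT2 (−1.78). The transcription factors were JDP2 (−2.57), CEBPB (−2.21), NUPR1 (−2.20) and ATF4 (−1.60), and the transporters SLC1A4 (−1.97) and SLC7A5 (−1.73). Positive values were found for SLC38A2 (1.53), SLC7A11 (2.06), XPOT (2.52) and EIF2AK3 (2.80). All of these use the vehicle libraries. After the GC correction 11 of the 20 were past the thresholds and with the factor of unwanted variation 2 were, DDIT4 and PSPH. The interaction was past them for 19, 19 and 20 members without vehicle replicate 1, 2 and 3. Over all genes tested it was past them for 3116, 2848 and 2894.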

How the results depend on the processing

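In E2 + TNFα relative to TNFα, the number of members past the thresholds was 16 to 19 under every alternative run, with 0 higher, and 16 to 19 with 1 library left out. Over all genes tested it was 495 to 836, and 572 to 729 with 1 library left out. With 1 library left out, the numbers in the other comparisons were 18 to 20 (TNFα relative to vehicle), 19 to 22 (interaction), 11 to 12 (E2 relative to vehicle), 11 to 14 (E2 + TNFα relative to vehicle) and 0 to 0 (E2 + TNFα relative to E2). Over all genes tested (10591 to 11280 in those fits) they were 2348 to 3163, 2848 to 3911, 2734 to 3641, 2217 to 3154 and 32 to 84, in the same order. The GC correction (removal of the GC and length trends), with and without the replicate block, gave 8 members in TNFα relative to vehicle (6 of them among the 18), 13 for the interaction (11 among the 20) and 6 in E2 relative to vehicle (5 among the 12). The factor of unwanted variation gave 8 (5 among the 18), 5 (2 among the 20) and 9 (4 among the 12) in the same order. In E2 + TNFα relative to vehicle, the GC correction gave 8 members (5 among the 12) and the factor gave 9 (4 among the 12). Over all 11303 genes tested, the GC correction without the block gave 1182, 1536, 1568 and 1255 in these comparisons. The factor gave 806, 979, 1586 and 1229 in them. The cause was not tested.

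Directions that turned are given as log2 fold changes, for the GC correction without and with the block. In TNFα relative to vehicle SLC7A11 was at 1.16 and 1.15. The interaction was 0.34 and 0.35 for ATF3, −1.075 and −1.08 for SLC38A2, and −1.38 and −1.37 for SLC7A11. In E2 relative to vehicle the values were −0.347 and −0.354 for ATF4, −0.38 and −0.379 for CHAC1, 0.26 and 0.27 for SLC38A2, and 0.40 and 0.39 for SLC7A11. In E2 + TNFα relative to vehicle they were −0.26 and −0.257 for ATF4, −0.052 and −0.052 for CHAC1, 0.014 and 0.014 for SLC38A2, and 0.18 and 0.17 for SLC7A11. In E2 + TNFα relative to E2 they were 0.0904 and 0.0967 for ATF4, 0.085 and 0.11 for DDIT3, and −0.22 and −0.22 for SLC7A11. With the factor of unwanted variation GDF15 was at −0.52 in TNFα relative to vehicle and at 1.54 for the interaction, with adjusted p of 0.907 and 0.771. That factor also turned the interactions of ATF3 (0.19) and SLC38A2 (−1.32), E2 relative to vehicle of CEBPG (0.20), CHAC1 (−0.92), EIF2AK3 (0.27) and SLC38A2 (0.80), and E2 + TNFα relative to vehicle of CHAC1 (−0.51) and SLC38A2 (0.37). With library size only, the interaction of ATF3 was 0.067, and in E2 + TNFα relative to E2 ATF4 was at 0.0078 and DDIT3 at 0.023. With 1 library left out, CHAC1 ranged from −0.095 to 0.26 and DDIT3 from −0.25 to 0.030 in that comparison.

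The replicate numbers did not pair the libraries (correlations of deviations −0.482 to 0.467, above 0.1 in 5 of 18 pairs), and the replicate block alone took 1 call, the interaction of SLC38A2 (1.49), under the limit. Counts limit GDF15 and NUPR1, which held at most 9 reads in any library with E2.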
